A study of Mus musculus with 21 samples.

Results

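The genes described here carry out MHC class I antigen presentation: 9 of the 46517 genes in the deposited count table, chosen by name as the heavy chains H2-K1 and H2-D1, the light chain B2m, the peptide transporter subunits Tap1 and Tap2, the loading factor Tapbp, the immunoproteasome subunits Psmb8 and Psmb9 and the transcriptional activator Nlrc5. All 9 were found, and all 9 had enough counts to be tested. No measured value entered the choice by rule, although earlier results of these data were known.

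Bulk RNA-sequencing of the left ventricle addressed how the heart is altered when the Notch3 receptor of vascular mural cells is missing. Hearts came from 4 control mice (genotype Notch3 +/+) and 3 Notch3-/- mice of strain c57bl/6j, aged 10 to 14 months, and sex is not given for these samples. The Notch3-/- allele carries lacZ inserted in the Notch3 locus in every cell, so the loss is not limited to the heart or to mural cells. Each mouse gave 3 technical libraries, whose counts were summed, for totals of 3091461, 4638786, 4208205 and 3046326 counts per control heart and 3828763, 5167869 and 5086740 per Notch3-/- heart. Values are given throughout in this order of mice, controls 1 to 4 before Notch3-/- mice 1 to 3. The labels of control mice 1 and 2 begin with X and those of the other 5 mice with k, and what the letters stand for is not stated.

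Class I molecules show fragments of a cell's own proteins to CD8 T cells and natural killer cells. Proteasomes cut proteins into peptides, the Tap1/Tap2 transporter moves them into the endoplasmic reticulum, and tapasin (Tapbp) helps load them on a heavy chain paired with beta-2-microglobulin. Nearly all nucleated cells carry class I, its level in resting heart muscle is low next to that in endothelial and immune cells, and interferons raise much of the set together, in part through Nlrc5.

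The genotype labels were checked on the targeted gene. Notch3 (ENSMUSG00000038146, chr17:32120820-32166852, minus strand) had 174, 200, 245 and 185 counts in the 4 controls and 22, 36 and 25 in the 3 Notch3-/- hearts. The groups were far apart, and the log2 fold change was -3.16 (SE 0.23, edgeR quasi-likelihood test, FDR = 0.00173 after Benjamini-Hochberg adjustment over the 14324 genes tested). It was the 1 gene called in the comparison, where called means that the FDR was lower than 0.05 and the levels differed 1.5-fold or more.

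All 9 class I genes had a higher estimate in Notch3-/- hearts, and none of the differences passed the test. With edgeR 0 of 9 were called, where 0.00698% of all genes tested were, and 0 of 9 had an unadjusted p lower than 0.05 on the higher side, where 7.34% of all genes had one. DESeq2, run here and below on the 28790 genes with at least 1 count and thus without the edgeR filter, called 0 of 9 as well, against 3.43% of genes with an adjusted p, and gave 1 of the 9, Tap1, an unadjusted p lower than 0.05. On only the genes tested with edgeR, DESeq2 called 300 genes, not 597, and again 0 of the 9. The median log2 fold change of the 9 genes was 0.20, from 0.073 for Tapbp to 0.61 for Tap1, while the median of all genes tested was -0.0028 and 49.6% of them were higher. In 0 of the 9 genes did every Notch3-/- mouse lie above every control mouse, a separation seen on the higher side in 4.57% of all genes. In bulk tissue, a different number of cells of a type and a different amount of RNA per cell cannot be told apart, and this holds for every value given here.

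The estimates rested on some mice more than on others. Relative to the mean of the controls, the average log2 level of the 9 genes stood at -0.069, 0.17, -0.22 and 0.12 in the 4 controls and at 0.21, 0.55 and -0.034 in the 3 Notch3-/- hearts. Notch3-/- mouse 2 was the highest of the 7, mouse 1 lay just above the highest control mouse, and mouse 3 lay within the controls. In Notch3-/- mouse 2, 7 of the 9 genes exceeded every control mouse, in mouse 1 these were 3 of 9 (H2-K1, B2m and Psmb9) and in mouse 3 they were 0 of 9, where over all genes tested the shares were 29.3%, 23.9% and 20.1%. Leaving out Notch3-/- mouse 2 brought the median of the 9 log2 fold changes to 0.065, and 2 of them, for H2-D1 (-0.013) and Tap2 (-0.0024), were negative. Leaving out Notch3-/- mouse 3 brought it to 0.43, and 4 of the 9 genes (H2-K1, B2m, Tap1 and Psmb9) had an unadjusted p lower than 0.05. In that comparison 1748 of all 15008 genes had such a p on the higher side and 700 on the lower side. There edgeR called 0 of the 9 genes, where it called 6.24% of all genes. The lowest FDR of the 9 was 0.0650 after Benjamini-Hochberg adjustment, for H2-K1.

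**Figure D1:**
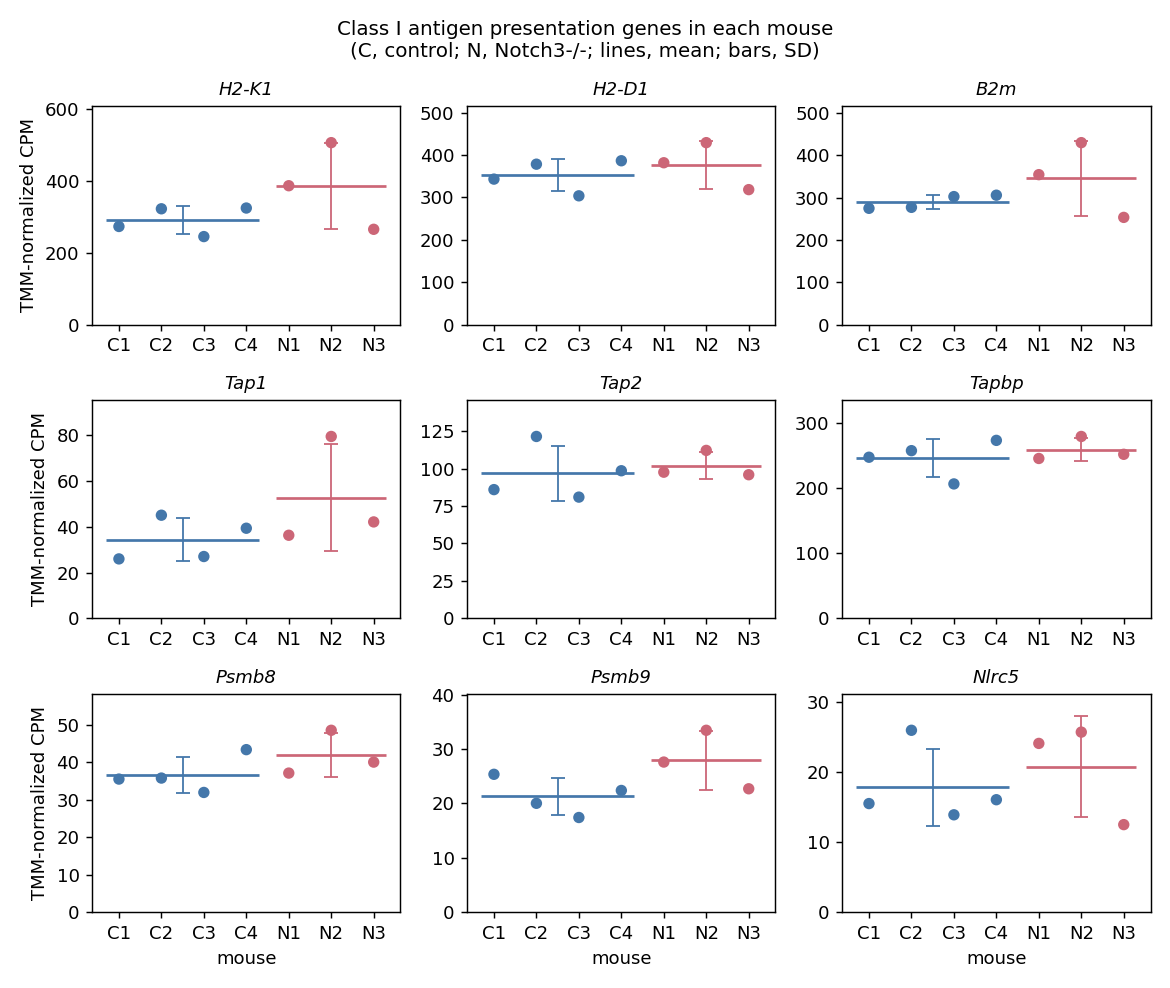
Level of each of the 9 class I genes (vertical axis, TMM-normalized CPM from 0), with 1 point per mouse (C1 to C4, controls in blue, N1 to N3, Notch3-/- in red), a line at each group's mean and a bar for its SD. Notch3-/- mouse 2 lies above every control mouse for 7 of the 9 genes and Notch3-/- mouse 3 for 0 of them.

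The classical heavy chains H2-K1 and H2-D1 bind the peptide and are what a T-cell receptor recognizes. H2-K1 (ENSMUSG00000061232, chr17:33996017-34000347, minus strand) stood at 274, 323, 245 and 325 CPM (counts per 1000000 counts after TMM scaling) in the 4 controls and at 387, 507 and 266 CPM in the 3 Notch3-/- hearts. Notch3-/- mice 1 and 2 were above all controls and mouse 3 was among them, so the groups overlapped. The means were 292 CPM (SD 39.0, n = 4) and 387 CPM (SD 121, n = 3), a fitted 1.33-fold difference with a 95% confidence interval from 0.970 to 1.81 (log2 0.41, SE 0.20, edgeR quasi-likelihood test, Benjamini-Hochberg FDR = 0.513). The log2 fold change of H2-K1 was 0.16 without Notch3-/- mouse 2 and 0.61 without mouse 3. H2-D1 (ENSMUSG00000073411, chr17:35262730-35267499, plus strand) stood at 343, 378, 304 and 386 CPM in the controls and at 382, 429 and 318 CPM in the Notch3-/- mice. Here 1 Notch3-/- mouse, mouse 2, exceeded the controls, and the other 2 fell between them. The fold difference was 1.07 (0.866 to 1.31, log2 0.093, SE 0.13, edgeR quasi-likelihood test, Benjamini-Hochberg FDR = 0.859).

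The heavy-chain promoters are shown because the 2 genes share a compact block of letters known as sites of nuclear factor kappa B and interferon regulatory factors. In the 200 bases before the start of H2-K1 (chr17:34000348-34000547, minus strand, RefSeq, GRCm38.p6), the capitals mark, in this order, a kappa B-type match (GGG, any 2 bases, TTCCC), a match to GAANNGAAA on the other strand, TGACGC and the reverse complement of CCAAT. For H2-D1 only the block with the first pair of matches is shown (chr17:35262923-35262952, plus strand), beside the same block of H2-K1 (chr17:34000429-34000458, minus strand), and the blocks differ at 1 of 30 positions.
H2-K1 promoter: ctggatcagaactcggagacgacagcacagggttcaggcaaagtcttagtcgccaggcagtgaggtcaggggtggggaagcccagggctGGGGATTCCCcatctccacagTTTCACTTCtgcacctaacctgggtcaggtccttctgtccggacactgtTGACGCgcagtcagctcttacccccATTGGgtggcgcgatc
H2-K1 block: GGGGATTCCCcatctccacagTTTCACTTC
H2-D1 block: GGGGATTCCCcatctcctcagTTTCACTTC

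B2m, the invariant light chain that every class I heavy chain needs to leave the endoplasmic reticulum, is the 1 gene of the 9 on chromosome 2 (ENSMUSG00000060802, chr2:122147686-122153083, plus strand). It stood at 275, 277, 302 and 306 CPM in the 4 controls and at 354, 429.7 and 253 CPM in the 3 Notch3-/- hearts. The controls lay close together, Notch3-/- mice 1 and 2 were above all of them and mouse 3 was below all of them. The means were 289.9 CPM (SD 16.4, n = 4) and 346 CPM (SD 88.6, n = 3), a 1.19-fold difference (0.925 to 1.54, log2 0.25, SE 0.16, edgeR quasi-likelihood test, Benjamini-Hochberg FDR = 0.627), and the log2 value was 0.065 without Notch3-/- mouse 2 and 0.43 without mouse 3. Its promoter is shown for comparison with the heavy chains, as the 150 bases before the RefSeq start (chr2:122147537-122147686, plus strand, GRCm38.p6), with the letters of an interferon-stimulated response element (GAAA, any 2 bases, GAAA) and the reverse complement of CCAAT in capitals.
B2m promoter: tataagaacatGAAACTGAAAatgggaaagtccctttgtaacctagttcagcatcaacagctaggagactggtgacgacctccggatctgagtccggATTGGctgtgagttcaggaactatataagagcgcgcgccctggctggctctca

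Motifs were searched on both strands in the 250 bases before each start, and RefSeq promoters were matched for 7 of the 9 genes (none for Tap2 and Nlrc5). The kappa B-type letters and the shorter interferon-type pair GAANNGAAA were each found in 2 of the 7, H2-K1 and H2-D1, and occur in 1.54% and 6.31% of 32817 promoters. The kappa B-type match lay 111 to 102 bases before the start of H2-K1 and 171 to 162 bases before that of H2-D1. TGACGC, letters found in the X2 box through which Nlrc5 is recruited, was in the same 2 promoters (6.11% of all promoters), 41 to 36 and 101 to 96 bases before the start. Positions in H2-K1 are from the first of its 2 RefSeq starts. From the second, the kappa B-type match lay 125 to 116 bases and TGACGC 55 to 50 bases before it. The response element, which has 1 base more between its repeats than the shorter pair and so does not contain it, was in 1 of 7, B2m (2.97% of all), and TTCNNNGAA, the letters of a gamma-activated site, was in 1 of 7, Psmb8, 97 to 89 bases before its start (7.01% of all). CCAAT was in 6 of 7 (33.8% of all), and GTGGGAA, a sequence bound by the Notch effector RBPJ, was in 0 of 7 (5.42% of all). The RefSeq starts of Tap1 and Psmb9 lie 225 bases apart on opposite strands. The CCAAT of the Tap1 promoter, 222 to 218 bases before its start, is the same stretch as the one 8 to 4 bases before the start of Psmb9. Gene spans given here are those of GENCODE, so the H2-D1 block, which precedes its RefSeq start, lies inside the span of H2-D1. A match is a description of letters and not a site, and the lack of one says only that these letters are not in the window.

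Tap1 and Tap2 form the transporter that pumps peptides into the endoplasmic reticulum. Tap1 (ENSMUSG00000037321, chr17:34187553-34197225, plus strand) stood at 26.01, 45.1, 27.1 and 39.4 CPM in the 4 controls and at 36.3, 79.5 and 42.2 CPM in the 3 Notch3-/- hearts. A single mouse, Notch3-/- mouse 2, was above all controls, and the control mice themselves fell into a lower and a higher pair. The means were 34.4 CPM (SD 9.38, n = 4) and 52.7 CPM (SD 23.4, n = 3), and the 1.53-fold difference (0.965 to 2.43, log2 0.61, SE 0.30, edgeR quasi-likelihood test, Benjamini-Hochberg FDR = 0.504) was the largest of the 9. The log2 fold change of Tap1 was 0.19 without Notch3-/- mouse 2. Its partner Tap2 (ENSMUSG00000024339, chr17:34203527-34216321, plus strand) stood at 85.9, 121, 80.9 and 98.5 CPM in the controls and at 97.6, 112 and 95.9 CPM in the Notch3-/- mice. All 3 Notch3-/- mice fell inside the control range, with a fold difference of 1.05 (0.815 to 1.36, log2 0.074, SE 0.17, edgeR quasi-likelihood test, Benjamini-Hochberg FDR = 0.915).

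Tapasin, the product of Tapbp (ENSMUSG00000024308, chr17:33915899-33929292, plus strand), bridges the transporter and the empty heavy chain and edits the bound peptide. Its level was 248, 258, 207 and 273.5 CPM in the 4 controls and 246, 279.5 and 252 CPM in the 3 Notch3-/- hearts. The groups overlapped almost entirely, apart from the low value of control mouse 3 and a Notch3-/- mouse 2 just above the highest control. The fold difference was 1.05 (0.867 to 1.28, log2 0.073, SE 0.13, edgeR quasi-likelihood test, Benjamini-Hochberg FDR = 0.883). Both Tapbp (-0.015) and Tap2 (-0.016) had a negative log2 fold change once control mouse 3 was left out.

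Psmb8 and Psmb9 are catalytic subunits that interferon-exposed cells build into proteasomes in place of Psmb5 and Psmb6, which favours peptides that fit class I. Psmb9 (ENSMUSG00000096727, chr17:34181987-34187764, minus strand) stood at 25.4, 20.02, 17.4 and 22.4 CPM in the 4 controls and at 27.6, 33.4 and 22.7 CPM in the 3 Notch3-/- hearts. Notch3-/- mice 1 and 2 were above all controls, and mouse 3 was below 1 of them, control mouse 1. The means were 21.3 CPM (SD 3.39, n = 4) and 27.9 CPM (SD 5.38, n = 3), a 1.32-fold difference by the fit (0.953 to 1.81, log2 0.39, SE 0.21, edgeR quasi-likelihood test, Benjamini-Hochberg FDR = 0.544). Psmb8 (ENSMUSG00000024338, chr17:34197721-34201454, plus strand) stood at 35.6, 35.8, 32.0 and 43.4 CPM in the controls and at 37.2, 48.6 and 40.1 CPM in the Notch3-/- mice. Notch3-/- mouse 2 was the highest, and mice 1 and 3 lay below control mouse 4, with a fold difference of 1.15 (0.885 to 1.48, log2 0.20, SE 0.17, edgeR quasi-likelihood test, Benjamini-Hochberg FDR = 0.730). Over the mice left out in turn, the log2 fold change ran from 0.24 to 0.52 for Psmb9 and from 0.078 to 0.29 for Psmb8. Both were lowest without Notch3-/- mouse 2.

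Nlrc5, the activator that assembles on class I promoters, had the lowest level of the 9 genes (ENSMUSG00000074151, chr8:94434356-94527272, plus strand). It stood at 15.5, 25.9, 13.9 and 16.0 CPM in the 4 controls and at 24.1, 25.7 and 12.5 CPM in the 3 Notch3-/- hearts. Both groups spanned nearly the same range, with control mouse 2 the highest of all mice and Notch3-/- mouse 3 the lowest. The fold difference was 1.15 (0.710 to 1.87, log2 0.20, SE 0.31, edgeR quasi-likelihood test, Benjamini-Hochberg FDR = 0.867), the widest interval of the 9 on the log2 scale. The log2 fold change of Nlrc5 was 0.0096 without Notch3-/- mouse 2 and 0.46 without mouse 3.

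**Figure D2:**
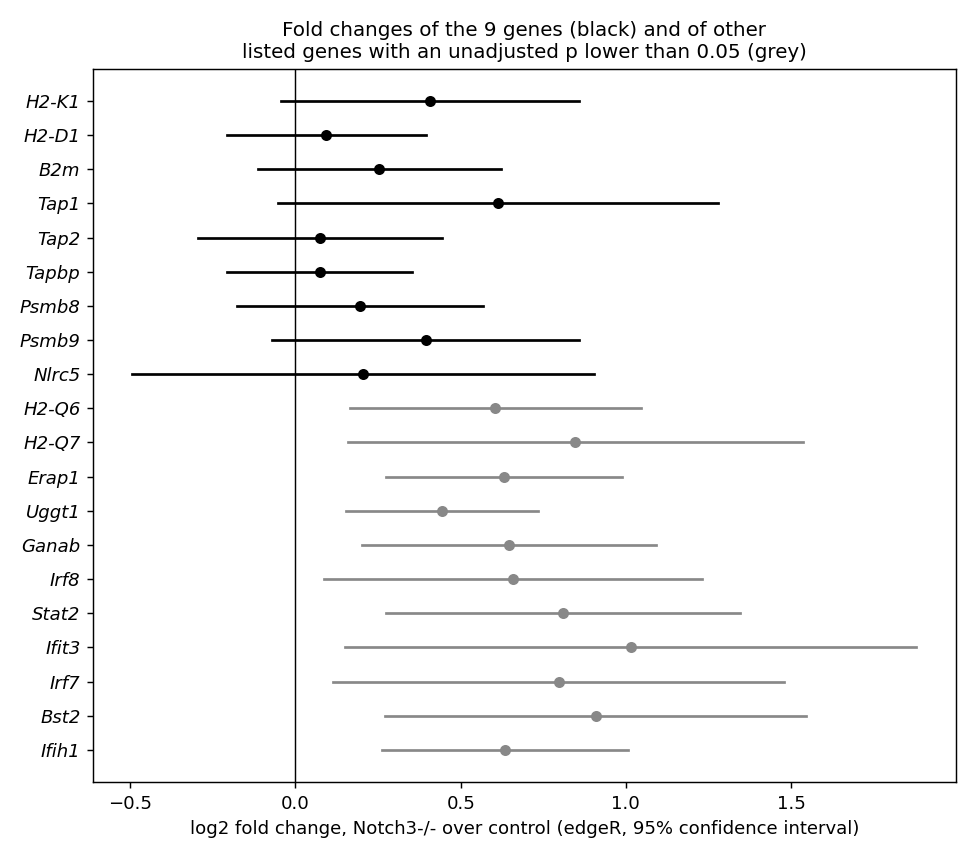
Log2 fold change, Notch3-/- over control (horizontal axis), of the 9 class I genes in black and, in grey, of other genes of the pathway lists that were picked for an unadjusted p lower than 0.05 (H2-Q10, Cd1d1 and Azgp1 are left off for scale), with bars for the 95% confidence interval of the edgeR fit. The 9 black points lie above 0, from 0.073 for Tapbp to 0.61 for Tap1, and all 9 black bars cross 0.

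Per kb of annotated exon, B2m was the most abundant of the 9 at a mean of 365 CPM per kb over the 7 mice (294 to 499.7), followed by H2-D1 at 141 (118 to 166) and H2-K1 at 113 (83.5 to 173). Tapbp followed at 69.4 CPM per kb (56.95 to 77.0), Tap2 at 26.2 (21.4 to 32.1) and Psmb8 at 11.5 (9.46 to 14.4). Tap1 at 7.71 CPM per kb (4.75 to 14.5), Psmb9 at 6.59 (4.76 to 9.14) and Nlrc5 at 2.25 (1.47 to 3.05) closed the order. The ranges over the mice overlapped between H2-D1 and H2-K1, between Psmb8 and Tap1 and between Tap1 and Psmb9, so the order within these pairs was not set beyond the spread. The exon lengths join all annotated transcripts, which lowers the level of a gene with long rare exons. Together the 9 genes took 0.130%, 0.152%, 0.124% and 0.148% of all counts in the 4 controls and 0.152%, 0.179% and 0.135% in the 3 Notch3-/- hearts.

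Spread between libraries and between mice was measured on the log2 scale. The median SD between the libraries of a mouse was 0.26 for the 9 genes and 0.40 for all genes tested. Between control mice, on each mouse's mean over its 3 libraries, it was 0.18 for the 9 genes and 0.24 for all genes. The SD between mice thus holds library spread averaged over 3 libraries, so these SDs are not like measures. Tap1 (0.40) and Nlrc5 (0.42) varied most between control mice, and B2m (0.092) least. The genes whose log2 CPM followed the mean of the 9 most closely over the 7 mice, among 10578 candidates, were Adss (r = 0.990), Osgin1 (0.985), Gpt (0.983), Srsf4 (0.980) and Edem2 (0.980), which is a description of likeness over 7 mice that share the 3 Notch3-/- animals described here, with no test. Osgin1 stood at 11.5, 22.1, 7.53 and 15.0 CPM in the controls and at 28.2, 88.6 and 12.7 CPM in the Notch3-/- mice, and Gpt at 111, 123, 89.4 and 119 CPM in the controls and at 136, 186 and 112.5 CPM in the Notch3-/- mice. In both, as in the mean of the 9 class I genes, Notch3-/- mouse 2 was the highest and control mouse 3 the lowest.

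Ratios of gene pairs within a mouse do not depend on how libraries are scaled, and 5 were compared by exact permutation of the genotypes, two-sided, over all 35 ways to divide the mice, which can give no p lower than 0.0286. The log2 ratio of Psmb9 to Psmb6, the constitutive subunit it replaces, was -2.88, -2.86, -3.30 and -2.89 in the 4 controls and -2.66, -2.09 and -2.74 in the 3 Notch3-/- hearts. Every Notch3-/- mouse was above every control mouse, by 0.49 on average (exact permutation p = 0.0286, the smallest possible, 0.143 after Benjamini-Hochberg adjustment over the 5 ratios). With 35 divisions, a ratio at the smallest p could pass the adjustment only if at least 3 of the 5 ratios reached that p. Only Psmb9/Psmb6 reached it, and with this number of mice and ratios a single ratio could not pass alone. The log2 ratio of Psmb8 to Psmb5 was -1.54, -1.25, -1.65 and -0.97 in the controls and -1.40, -0.89 and -1.08 in the Notch3-/- mice, and it overlapped between groups (difference 0.23, exact permutation p = 0.343, adjusted 0.429). That of Psmb10, the remaining immunoproteasome subunit, to Psmb7 ran from -1.82 to -1.48 in the controls and from -1.89 to -1.56 in the Notch3-/- mice (difference -0.039, exact permutation p = 0.8286, adjusted 0.8286). Its sign turned when control mouse 1, control mouse 2 or Notch3-/- mouse 2 was left out (0.015, 0.014 and 0.068) and in the k-labelled mice only (0.12).

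The other pairs compared genes of like function. The log2 ratio of H2-K1 to H2-D1 was -0.33, -0.23, -0.31 and -0.25 in the 4 controls and 0.021, 0.24 and -0.26 in the 3 Notch3-/- hearts. The controls lay within a narrow band, Notch3-/- mice 1 and 2 lay above it and mouse 3 lay inside it (difference 0.28, exact permutation p = 0.0857, adjusted 0.143). The log2 ratio of Tap1 to Tap2 was -1.72, -1.43, -1.58 and -1.32 in the controls and -1.42, -0.50 and -1.19 in the Notch3-/- mice, of which mouse 1 fell among the controls (difference 0.48, exact permutation p = 0.0571, adjusted 0.143). Without Notch3-/- mouse 2 the differences were smaller for H2-K1/H2-D1 (0.16), Tap1/Tap2 (0.21), Psmb9/Psmb6 (0.29) and Psmb8/Psmb5 (0.11). In Psmb9/Psmb6 and H2-K1/H2-D1 the Notch3-/- mice fell from mouse 2 to 1 to 3, the order of the hepatocyte markers given below, and with these markers as a covariate the log2 fold change of Psmb9 itself was 0.0057, against 0.39 without it. That covariate largely coincides with genotype, as given below. The part of these transcripts in the ratios was not tested.

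**Figure D3:**
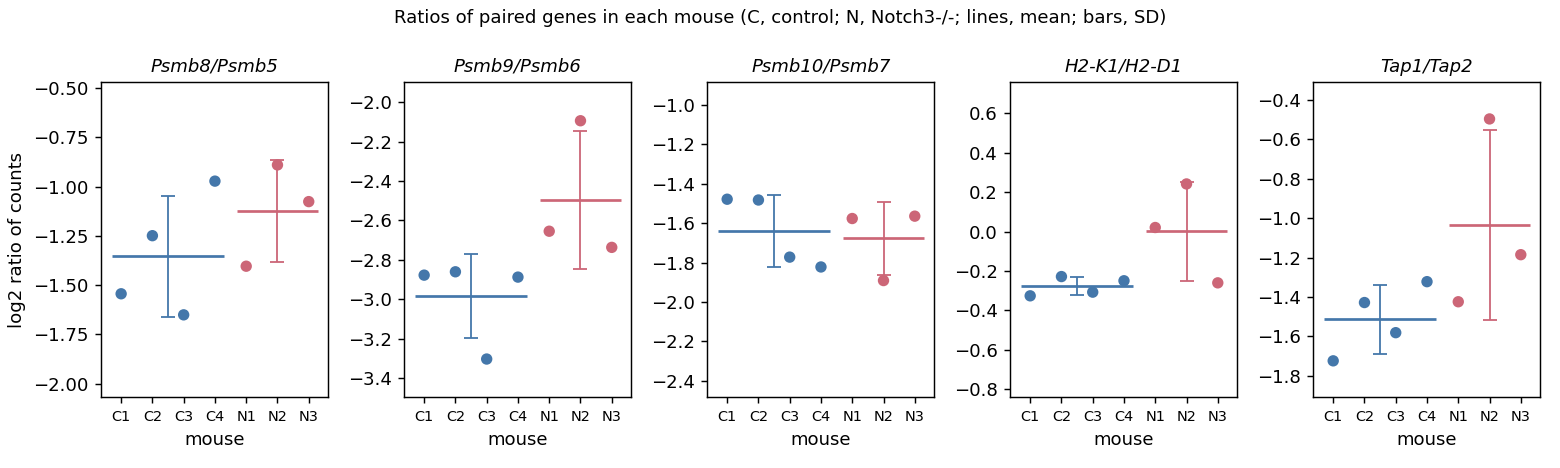
Log2 ratio of 2 genes within each mouse for 5 gene pairs, with 1 point per mouse (C1 to C4, controls, N1 to N3, Notch3-/-), a line at each group's mean and a bar for its SD. Psmb9/Psmb6 is the pair in which every Notch3-/- mouse lies above every control mouse.

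Markers of hepatocytes fell from Notch3-/- mouse 2 to 1 to 3, as did the mean of the class I genes. For Tap1, Tapbp and Psmb8 mouse 3 stood above mouse 1. Of all genes tested, 20.75% fell from mouse 2 to 1 to 3. The 18 hepatocyte markers summed to 172, 809, 58 and 85 counts in the 4 controls and to 25607, 65279 and 815 in the 3 Notch3-/- hearts, or 0.00556%, 0.0174%, 0.00138% and 0.00279% of all counts against 0.669%, 1.26% and 0.0160%. Notch3-/- mouse 2 had most, mouse 1 came next and mouse 3 had a share near that of control mouse 2 and higher than those of the other controls, the same order of Notch3-/- mice as for the mean of the class I genes. In mouse 3, 9 of the 17 markers tested exceeded every control (20.1% of all genes tested did), with a median log2 difference of 1.2 from the control mean. Of the 18 markers 17 were tested with edgeR, all 17 were higher with an unadjusted p lower than 0.05 and 0 were called. DESeq2, without the edgeR filter, called 17 of the 18, with Tdo2, which edgeR did not test, and without Cyp3a11. Of the 18 markers 9 had a count in every mouse and none was at 0 in all mice. The most abundant, Alb, had 68, 385, 10 and 32 counts in the controls and 6240, 8913 and 354 in the Notch3-/- mice. With the mean level of these markers as a covariate, 6 of the 9 class I genes had a negative log2 fold change, and the median was -0.16. Of all 14324 genes 7631 had a negative one in that fit, with a median of -0.029. Nlrc5 had the lowest value of the 9 (-0.82) and the 1 unadjusted p lower than 0.05 of the 9 (p = 0.0484, edgeR quasi-likelihood test), on the lower side, where 352 of all 14324 genes had one. For each of the 9 genes, and for each other gene given below with an adjusted p, the highest adjusted p over all settings tried, 0.999, came from that covariate fit. The markers were far higher in Notch3-/- mice 1 and 2 than in any control, so covariate and genotype largely coincide. Here and wherever this covariate is used, the fit can separate them only weakly. Without Notch3-/- mice 1 and 2, a setting chosen after seeing the data, 4 of the 9 genes were higher and 5 lower with a median of -0.013. The part of these transcripts in the levels of the class I genes was not tested beyond these fits.

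**Figure D4:**
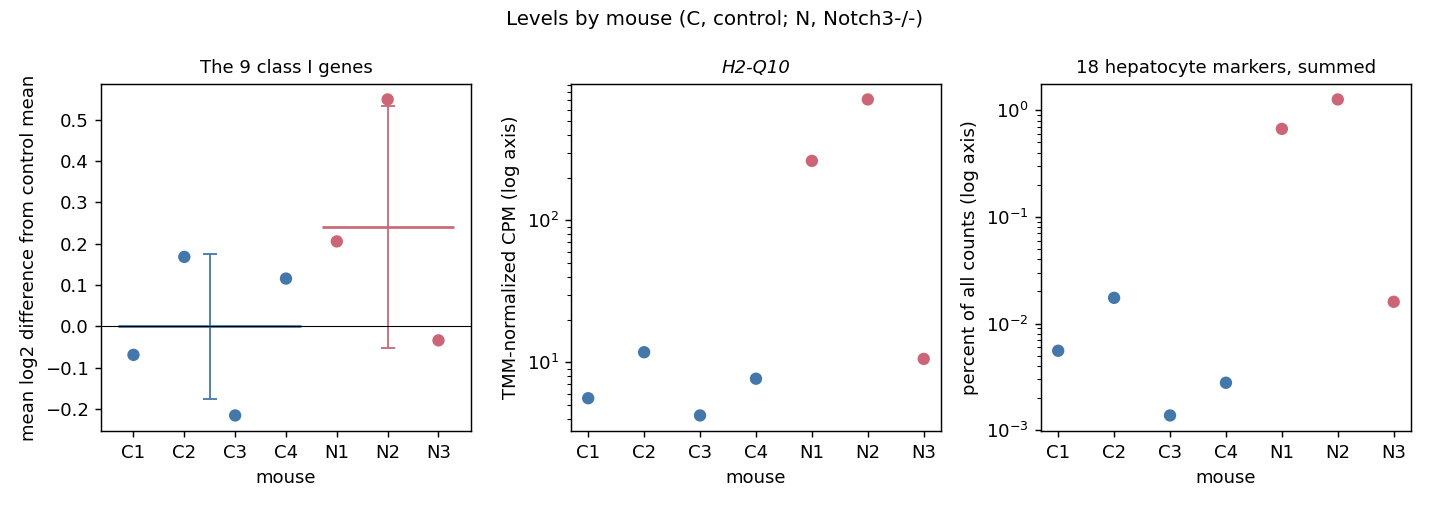
For each of the 7 mice, the mean log2 difference of the 9 class I genes from the control mean (left, with a line at each group's mean and a bar for its SD), the level of the liver-type heavy chain H2-Q10 (middle, CPM, log axis) and the summed share of counts from 18 hepatocyte markers (right, percent, log axis). Notch3-/- mouse 2 is highest in all 3 panels, and Notch3-/- mouse 3 lies within the control range in all 3.

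Most of the class I genes lie on the chromosome of the targeted gene. The 7 on chromosome 17 sit on 1 side of Notch3, at 1.75 Mb (Tapbp), 1.83 Mb (H2-K1), 2.02 Mb (Psmb9 and Tap1), 2.03 Mb (Psmb8), 2.04 Mb (Tap2) and 3.10 Mb (H2-D1) from it. Sequence linked to the targeted allele is inherited with it, so it is an alternative to an effect of the missing receptor for these 7 genes, and these cannot be told apart in this design. The median log2 fold change of the 7 linked genes was 0.20, and the 2 genes on other chromosomes, B2m and Nlrc5, had 0.25 and 0.20.

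Genes around Notch3 were compared with the rest of the genome in the same way. Within 5 Mb of Notch3, 29 of 210 genes tested (13.8%) had an unadjusted p lower than 0.05, 21 of them higher and 8 lower, against 10.4% of 13651 genes on other chromosomes or without a position, and edgeR called 0 of the 210. DESeq2 called 10 of 209 with an adjusted p (4.79%), 9 of them higher, against 2.27% of those 13641 genes with an adjusted p on other chromosomes or without a position that edgeR tested too. Of the 10, 8, H2-Q10 among them, fell from Notch3-/- mouse 2 to 1 to 3 like the hepatocyte markers, an order that 20.75% of all genes tested had. The median log2 fold change was -0.014 within 5 Mb and -0.0016 for these 13651 genes, and without the class I and class Ib genes the share within 5 Mb was 13.4% of 194. Without Notch3-/- mouse 3 both shares were higher, 21.4% within 5 Mb and 16.4% of the genes on other chromosomes or without a position. Within 500 kb, 2 of 11 genes had an unadjusted p lower than 0.05, both lower in Notch3-/- hearts. Gm17276, an antisense transcript that overlaps Notch3, had 30, 26, 29 and 16 counts in the 4 controls and 5, 5 and 2 in the 3 Notch3-/- hearts (log2 -2.89, SE 0.49, edgeR quasi-likelihood test, Benjamini-Hochberg FDR = 0.118). DESeq2 called it, with an adjusted p of 0.000880. Ephx3, an epoxide hydrolase gene, had 8, 8, 16 and 16 counts in the controls and 1, 1 and 7 in the Notch3-/- mice (log2 -2.31, SE 0.68, edgeR quasi-likelihood test, Benjamini-Hochberg FDR = 0.258), and without Notch3-/- mouse 3 it passed the test (log2 -3.63, FDR = 0.0314 by the same edgeR and Benjamini-Hochberg procedure).

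**Figure D5:**
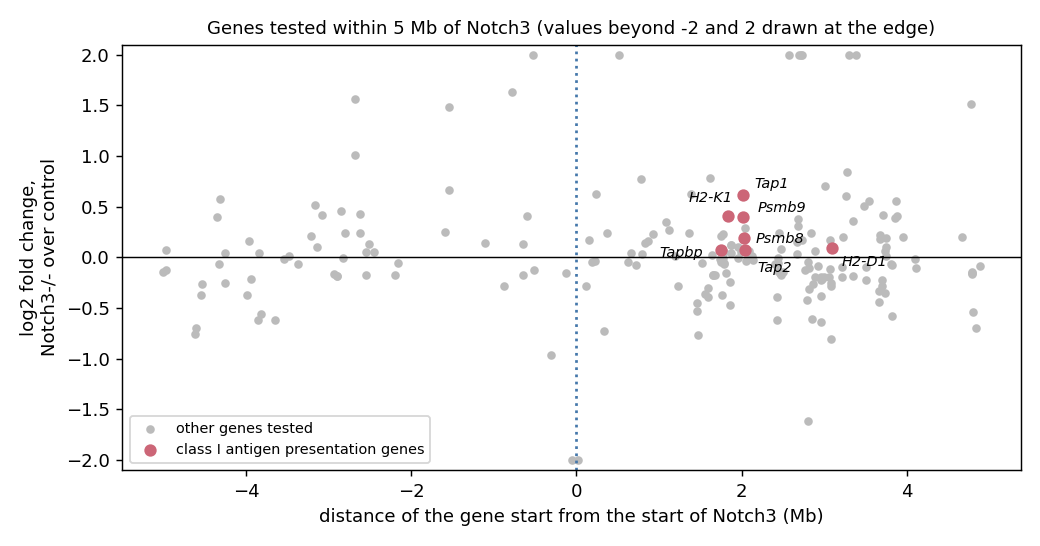
Log2 fold change, Notch3-/- over control, of the 210 genes tested within 5 Mb of Notch3, plotted against the distance of each gene's start from that of Notch3 in Mb, with the 7 class I genes of chromosome 17 in colour and values beyond -2 and 2 drawn at the edge. The class I genes lie between 1.75 and 3.10 Mb from Notch3 with values from 0.073 to 0.61, among neighbours on both sides of 0.

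The class Ib heavy chains, relatives of H2-K1 and H2-D1 from the same region, were compared with them. The list also holds H2-K2, annotated as a transcribed pseudogene, and H2-T10 and H2-Bl, annotated as polymorphic pseudogenes. Of these, H2-K2 (log2 fold change -0.15) and H2-T10 (0.20) were tested. Of the 17 listed genes 10 were tested, 7 higher and 3 lower (median log2 fold change 0.40), 3 with an unadjusted p lower than 0.05, 0 called by edgeR and 1, H2-Q10, by DESeq2. Relative to the controls' mean, their median log2 level stood at 0.29, 0.81 and 0.053 in the 3 Notch3-/- hearts, the order of the hepatocyte markers, and with the hepatocyte covariate 5 were higher and 5 lower (median log2 fold change -0.12). The levels of H2-Q6, a Qa-2 heavy chain gene, were 39.8, 58.0, 42.1 and 63.5 CPM in the 4 controls and 74.6, 90.4 and 66.9 CPM in the 3 Notch3-/- hearts. All 3 Notch3-/- mice were above all 4 controls (log2 0.60, SE 0.20, edgeR quasi-likelihood test, Benjamini-Hochberg FDR = 0.320). The log2 fold change of H2-Q6 was 0.29 with the hepatocyte covariate. With technical library number 1, 2 or 3 alone it was 0.36, 0.77 and 0.56. H2-Q7, also a Qa-2 gene, stood at 31.0, 60.1, 45.9 and 92.2 CPM in the controls and at 101, 122 and 86.0 CPM in the Notch3-/- mice, and control mouse 4 reached above Notch3-/- mouse 3 (log2 0.85, SE 0.31, edgeR quasi-likelihood test, Benjamini-Hochberg FDR = 0.374). The log2 fold change of H2-Q7 was 0.54 with the hepatocyte covariate. The limma-voom fit on the 21 technical libraries, which are not 21 mice, modelled the correlation between libraries of a mouse (0.152 over all genes). It gave H2-Q7 an adjusted p of 0.0188, and the same tool on the 7 mice gave 0.604.

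H2-Q10, a heavy chain known as secreted by the liver, had 17, 56, 18 and 23 counts in the 4 controls and 961, 3381 and 56 in the 3 Notch3-/- hearts. Notch3-/- mice 1 and 2 stood far above the rest and mouse 3 had the same count as control mouse 2, the order of the hepatocyte markers (log2 5.46, SE 1.04, edgeR quasi-likelihood test, Benjamini-Hochberg FDR = 0.118). It was called by DESeq2 (adjusted p = 0.000483) and by edgeR without Notch3-/- mouse 3 (FDR = 2.1e-05, Benjamini-Hochberg), and with the hepatocyte covariate its log2 fold change was -0.42. H2-Q1 had 0, 1, 4 and 2 counts in the controls and 24, 55 and 0 in the Notch3-/- mice, and was not tested because of low counts, while H2-M9 had 0 counts in all 7 mice. Without H2-Q10 the median of the class Ib genes tested was 0.39. Of the class I-like genes outside the MHC, 5 of 6 were tested, 3 higher and 2 lower (2 and 3 with the hepatocyte covariate), and 0 were called by edgeR. Azgp1, a secreted class I-like protein abundant in liver, had 1, 8, 0 and 0 counts in the controls and 399, 1652 and 13 in the Notch3-/- mice. Cd1d1, which presents lipids to natural killer T cells, had 31, 27, 15 and 11 counts in the controls and 185, 461 and 29 in the Notch3-/- mice. Both followed the order of the hepatocyte markers, with 2 unadjusted p values lower than 0.05, and DESeq2 called both, with adjusted p values of 0.00261 and 0.0268. The most abundant gene of this list per kb was Fcgrt, the neonatal Fc receptor, at 90.4 CPM per kb.

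Reads shared between related genes limit how far the heavy chains can be separated. Of the distinct 51-base stretches in annotated transcripts, the length of a read, 9.22% of those of H2-K1 also occur in another gene, 5.04% in H2-Q10 and 3.80% in H2-D1, and 12.2% of those of H2-D1 do. For H2-Q6, H2-Q7 and H2-Q10 the shares were 34.3%, 26% and 18.7%, and 13.8% of the H2-Q7 stretches also occur in H2-Q10. For B2m the share was 0 and for Nlrc5 0.327%. Tapbp (23%), Psmb8 (11.8%) and Tap2 (11.5%) share stretches mainly with annotated transcripts of overlapping loci. In the GENCODE annotation the spans of Tap1 and Psmb9 overlap by 212 bases on opposite strands. The span of B2m shares 5398 bases with Patl2 on the opposite strand, and that of Tapbp 3422 bases with Zbtb22 on the same strand. How the counting treated shared or overlapping reads is not given in the sources used here.

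The rest of the class I route fell into steps with and without a shared direction. In peptide supply (proteasome subunits, activators and peptidases) 19 of 19 genes were tested, 7 higher and 12 lower (median log2 fold change -0.042), with 1 unadjusted p lower than 0.05, 0 called by edgeR and 1 by DESeq2. With the hepatocyte covariate 5 were higher and 14 lower (median log2 fold change -0.044). For every list given here, the base is that 1051 higher and 437 lower of all 14324 genes had an unadjusted p lower than 0.05 with edgeR. Erap1, the endoplasmic reticulum peptidase that trims peptides to class I length, stood at 47.1, 56.1, 69.9 and 58.1 CPM in the 4 controls and at 91.3, 98.0 and 79.8 CPM in the 3 Notch3-/- hearts. Every Notch3-/- mouse was above every control mouse, Notch3-/- mouse 3 included, and these mice fell in the order of the hepatocyte markers (log2 0.63, SE 0.16, edgeR quasi-likelihood test, Benjamini-Hochberg FDR = 0.193). It was called by DESeq2, with an adjusted p of 0.0226, and over the mice left out in turn its log2 fold change ran from 0.55 to 0.72, but it was 0.11 with technical library number 1 alone, against 0.82 and 0.90 with numbers 2 and 3. The most abundant gene of peptide supply was Psmb5, a constitutive catalytic subunit, at 103 CPM per kb.

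Genes of class I folding and loading, the chaperones and glucosidases that prepare heavy chains, differed between the Notch3-/- mice. All 10 were tested and had a higher estimate, with a median log2 fold change of 0.26, 2 with an unadjusted p lower than 0.05 (4 with DESeq2) and 0 called by edgeR or DESeq2. Of all genes, 1051 higher and 437 lower of 14324 had such a p with edgeR, and 1455 and 473 of 28790 with DESeq2. Ganab, the catalytic subunit of glucosidase II, stood at 77.7, 92.9, 105 and 97.5 CPM in the controls and at 142, 190.1 and 106 CPM in the Notch3-/- mice, the lowest of which lay just above the highest control (log2 0.65, SE 0.20, edgeR quasi-likelihood test, Benjamini-Hochberg FDR = 0.284). Without Notch3-/- mouse 3 it passed the test (log2 0.82, FDR = 0.0190 by the same edgeR and Benjamini-Hochberg procedure). Uggt1, which returns misfolded glycoproteins to calnexin, stood at 92.9, 77.1, 85.6 and 81.2 CPM in the controls and at 115, 123.5 and 105 CPM in the Notch3-/- mice, with no overlap (log2 0.44, SE 0.13, edgeR quasi-likelihood test, Benjamini-Hochberg FDR = 0.260). Its log2 fold change was 0.013 with technical library number 1 alone, 0.72 with number 2 and 0.50 with number 3. Hspa5, the chaperone BiP, was the most abundant gene of the list at 161 CPM per kb. In Notch3-/- mouse 2 all 10 genes exceeded every control, in mouse 1 these were 7 and in mouse 3 they were 2, where the shares of all genes tested that did so were 29.3%, 23.9% and 20.1%, in the same order. The hepatocyte markers given above were also highest in mouse 2 (1.26% of counts) and lowest in mouse 3 (0.0160%), and the median log2 difference of the 10 genes from the control mean was 0.23, 0.52 and 0.0023 in mice 1 to 3. With the hepatocyte covariate 3 of the 10 genes were higher and 7 lower (median log2 fold change -0.063, and -0.029 for all genes tested), Ganab at 0.092 and Uggt1 at 0.31, and the part of these transcripts was not tested beyond that fit.

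Among 27 regulators of class I genes, 26 were tested, 19 higher and 7 lower, with a median of 0.099, 2 with an unadjusted p lower than 0.05 (2 with DESeq2) and 0 called by edgeR or DESeq2. With the hepatocyte covariate 13 were higher and 13 lower (median log2 fold change -0.025). Stat2, which carries type I interferon signals to the nucleus, stood at 16.1, 24.03, 18.6 and 26.4 CPM in the 4 controls and at 29.8, 49.2 and 32.9 CPM in the 3 Notch3-/- hearts. The groups did not overlap (log2 0.81, SE 0.24, edgeR quasi-likelihood test, Benjamini-Hochberg FDR = 0.267). Notch3-/- mouse 3 stood above mouse 1, unlike in the hepatocyte markers. Irf8, an interferon regulatory factor of myeloid cells, had a log2 fold change of 0.66 and was highest in Notch3-/- mouse 3, at 25.5 CPM, and with technical library number 1, 2 or 3 alone the value was 0.087, 0.27 and 1.30. Ifngr2, a chain of the interferon gamma receptor, was the most abundant regulator at 96.4 CPM per kb.

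Of 21 interferon-induced genes 19 were tested, 18 higher and 1 lower (median log2 fold change 0.61, the highest of the 6 pathway lists), 4 with an unadjusted p lower than 0.05 (7 with DESeq2) and 0 called by edgeR or DESeq2. Among all genes, 1051 higher and 437 lower of 14324 had such a p with edgeR, and 1455 and 473 of 28790 with DESeq2. Notch3-/- mouse 3 exceeded all controls for 8 of the 19, mouse 2 for 15 and mouse 1 for 3, where the shares of all genes tested were 20.1%, 29.3% and 23.9%. With the hepatocyte covariate 11 of the 19 were higher and 8 lower (median log2 fold change 0.37). Ifih1, a sensor of double-stranded RNA, stood at 23.7, 20.02, 21.2 and 21.04 CPM in the 4 controls and at 32.8, 37.7 and 29.5 CPM in the 3 Notch3-/- hearts. All Notch3-/- mice were above all controls and fell in the order of the hepatocyte markers (log2 0.63, SE 0.17, edgeR quasi-likelihood test, Benjamini-Hochberg FDR = 0.206). Bst2, a membrane tether of enveloped viruses and at 47.8 CPM per kb the most abundant of the list, stood at 29.96, 25.3, 32.9 and 37.4 CPM in the controls and at 56.3, 86.7 and 33.7 CPM in the Notch3-/- mice, and mouse 3 fell among the controls (log2 0.91, SE 0.29, edgeR quasi-likelihood test, Benjamini-Hochberg FDR = 0.290). These values followed the order of the hepatocyte markers, and with the hepatocyte covariate the log2 fold change of Bst2 was -0.0095. Without Notch3-/- mouse 3 it passed the test (log2 1.19, FDR = 0.00951 by the same edgeR and Benjamini-Hochberg procedure). Ifit3, a type I interferon-induced antiviral gene, and Irf7 had log2 fold changes of 1.01 and 0.80 (edgeR quasi-likelihood test, Benjamini-Hochberg FDR = 0.406 and 0.409), each with overlapping groups. In both, Notch3-/- mouse 3 stood above mouse 1, unlike in the hepatocyte markers.

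Markers of the cells that read class I or carry much of it were counted in the same libraries. T and natural killer cell markers summed to 65, 62, 76 and 58 counts in the 4 controls and to 94, 127 and 79 in the 3 Notch3-/- hearts, over 17 genes of which 1 was tested and 7 had a count in every mouse. The most abundant, Cd247, had 13, 14, 24 and 15 counts in the controls and 14, 17 and 28 in the Notch3-/- mice, and Zap70, a T-cell receptor kinase called by DESeq2, had 2, 4, 3 and 3 against 38, 59 and 1. Zap70 thus made up most of the higher sums of Notch3-/- mice 1 and 2. Cd8a, the coreceptor for class I, had 1, 2, 1 and 1 counts in the controls and 0, 2 and 0 in the Notch3-/- mice, so a difference in CD8 T cells was not detectable at this depth. B cell markers summed to 38, 24, 65 and 63 counts in the controls and to 63, 60 and 43 in the Notch3-/- mice.

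Macrophage and endothelial markers, whose cells are rich in class I, were more abundant. Macrophage markers took 0.0571%, 0.0526%, 0.0632% and 0.0550% of counts in the controls and 0.0577%, 0.0524% and 0.0687% in the Notch3-/- mice, with 7 of 10 higher, a median log2 fold change of 0.15 and 0 called by edgeR or DESeq2, where 1 (Mrc1) had an unadjusted p lower than 0.05 with edgeR. Endothelial markers took 0.129%, 0.117%, 0.131% and 0.158% in the controls and 0.138%, 0.144% and 0.151% in the Notch3-/- mice, with 7 of 10 higher, a median of 0.065, 0 with an unadjusted p lower than 0.05 and 0 called by edgeR or DESeq2. The 6 MHC class II genes, which Nlrc5's relative Ciita controls, had a median of 0.040 and 0 with an unadjusted p lower than 0.05, and edgeR and DESeq2 called 0. Of the mural cell markers, the cells in which Notch3 acts, 6 of 7 tested were lower (median -0.19), of the fibroblast markers 4 of 7 were higher (median 0.025) and of the cardiomyocyte markers 9 of 10 were lower (median -0.24), with 3, 3 and 0 unadjusted p values lower than 0.05 in either direction, 0 called by edgeR in each list and 1, 1 and 0 by DESeq2 (Myh11, lower, and Col1a1, higher). The cardiomyocyte markers took 2.92%, 2.19%, 2.53% and 2.81% of counts in the controls and 2.82%, 1.80% and 2.18% in the Notch3-/- mice, so the labelled tissue was present in all 7. With the hepatocyte covariate the median log2 fold change was 0.36 for the macrophage, 0.080 for the endothelial and 0.12 for the MHC class II genes, and -0.17 for the mural cell, 0.28 for the fibroblast and -0.26 for the cardiomyocyte markers. The part of any of these cell types in the class I levels was not tested.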

How the data were processed

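RNA was measured in the left ventricle of 4 control and 3 Notch3-/- mice, each with 3 technical libraries. The deposited values are counts of 51-base single reads per Ensembl gene, not normalized; the submitters' processing notes name CASAVA and mm10, while the aligner, the counting tool and its use of strand are not given in the sources used here. The counts of the 3 libraries were summed per mouse, and 92 spike-in lines with 34 counts were left out. Positions and exon lengths came from GENCODE vM21, and promoters from RefSeq (GRCm38.p6).

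Genotypes were compared with edgeR 4.0.16 in R 4.3.3 (filterByExpr, TMM, quasi-likelihood test), with Benjamini-Hochberg adjustment over the 14324 genes tested. A gene was called where the FDR was lower than 0.05 and the levels differed 1.5-fold or more, as in the study's methods. CPM are counts per 1000000 after TMM scaling. DESeq2 1.42.0 (on all genes with at least 1 count, and on the genes tested with edgeR), limma 3.58.1 (voom), other filters and scalings, left-out mice and a hepatocyte marker covariate were alternatives. Reads amplified without molecular identifiers are not independent molecules.

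The members and lists were chosen with earlier results of these data known. Genes named beside the members were those of each pathway list with an unadjusted p lower than 0.05 or the highest level per kb, the most abundant and defining markers of each marker list, genes within 500 kb of Notch3 with an unadjusted p lower than 0.05, and the 5 genes most like the members' mean. H2-Q1, H2-M9, Mrc1, Zap70, Myh11 and Col1a1 were named after their values were seen. One gene of the regulator list is not reported here and was left out of the list's counts.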

Additional observations from a re-analysis of the deposited data

Results flagged for a closer look

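Of 47 results looked at, 2 had a control mouse far from the other 3 by Dixon's test, which picks out about 1 group in 20 by chance. Irf7, a transcription factor of the interferon response, stood at 49.4 CPM in control mouse 4 and between 21.4 and 24.7 CPM in the other control mice. The log2 ratio of Psmb9 to Psmb6 was -3.30 in control mouse 3 and between -2.89 and -2.86 in the other control mice. The cause of either value was not tested.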

How the results depend on the processing

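Across 23 alternatives for each of the 9 genes, 188 of 207 fold changes kept their direction and 19 reversed. Members called stayed at 0 under 24 alternatives (23 fits and dropping the fold threshold), with edgeR, DESeq2 or limma-voom, and the lowest adjusted p was 0.0650 (H2-K1, edgeR without Notch3-/- mouse 3).

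The hepatocyte score largely coincides with genotype, so a fit with it separates them only weakly. With the hepatocyte score as a covariate, the log2 fold changes were -0.31 for H2-K1, -0.25 for H2-D1, -0.27 for B2m, -0.16 for Tap2, -0.028 for Tapbp, -0.82 for Nlrc5, -0.42 for H2-Q10, -0.69 for Cd1d1 and -0.0095 for Bst2. In the same fit they were 0.014 for Tap1, 0.0057 for Psmb9 and 0.082 for Psmb8, the class I genes that stayed positive. Without Notch3-/- mice 1 and 2, a setting chosen after seeing the data, they were -0.13 for H2-K1, -0.15 for H2-D1, -0.19 for B2m, -0.013 for Tap2, -0.52 for Nlrc5 and -0.056 for Cd1d1; the lone remaining Notch3-/- mouse is then assumed to vary like the controls. One technical library number alone gave -0.017 for Tapbp (number 1), -0.018 for H2-D1 and -0.10 for Tap2 (number 2) and -0.43 for Nlrc5 (number 3). Leaving out each mouse in turn gave -0.013 to 0.19 for H2-D1, -0.016 to 0.20 for Tap2 and -0.015 to 0.13 for Tapbp.

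The number of genes called, 1 with edgeR, was 597 with DESeq2 without the edgeR filter, 300 with DESeq2 on the genes tested with edgeR (a setting added later), 639 with edgeR on every gene of at least 1 count, 0 with the k-labelled mice only and 0 with the covariate. It was 1 with limma-voom on the 7 mice. It was 65 with limma-voom on the 21 technical libraries, which are not 21 mice, with the correlation within a mouse modelled. It was 48, 39 and 77 with library number 1, 2 or 3 alone. Leaving out each mouse in turn gave 1 to 936, the highest without Notch3-/- mouse 3. The log2 difference of Psmb10/Psmb7 was 0.0050 as the mean of library ratios, 0.12 in the k-labelled mice only and -0.10 to 0.068 with each mouse left out. The share of genes within 5 Mb of Notch3 with an unadjusted p lower than 0.05 ranged from 9.81% to 21.4% with each mouse left out, and that of genes on other chromosomes or without a position from 6.502% to 16.4%, both highest without Notch3-/- mouse 3. The cause of these shifts was not tested.

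With the technical library number as a replicate block in limma-voom on the 21 libraries, 62 genes were called and 0 members. Same-numbered libraries of different mice did not deviate together (mean r -0.015, against 0.0073 for libraries with different numbers), and 4 of 21 libraries were closest to their own number, so the block is no pairing.

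With 3 and 4 mice, wide intervals limit every comparison, and Psmb9 and Nlrc5 had as few as 9 and 7 counts in a library.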
